A study of Rattus norvegicus with 4 samples.

Results

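A pair of serotonin genes was examined in the rat hippocampus after chronic fluoxetine exposure: Htr5b, a serotonin receptor, and Tph2, the enzyme that makes serotonin in neurons. The genes were taken as every row of the deposited RNA-seq table whose gene symbol is Htr5b or Tph2. The table held 1 transcript of each, so that 2 of its 830 transcripts are described. Male Wistar rats had been gavaged daily with 12 mg/kg fluoxetine, or with vehicle (1% methylcellulose), between postnatal day (PND) 67 and 88. Hippocampal tissue was punched from frozen brain slices at PND 128, when 40 days had passed without treatment. Each of the 4 samples pooled the tissue of 2 rats, with 2 samples per treatment, and no disease model was used. All 830 transcripts had been kept by the authors for a difference between these same samples (DESeq P-value under 0.05 and fold change over 1.5), which includes Htr5b and Tph2. Mean reads were higher after fluoxetine in 52.0% of the listed transcripts, Htr5b and Tph2 included. That both genes differ was thus set by the selection. The p-values below describe the difference of means in these same samples and are not independent evidence.

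Serotonin is made by neurons of the raphe nuclei in the brainstem, whose axons reach the hippocampus while their cell bodies stay behind. Tph2, tryptophan hydroxylase 2, carries out the rate-limiting step of its synthesis, and its mRNA is known chiefly from those cell bodies. Released serotonin acts on a large family of receptors and is taken back up by the serotonin transporter, the target of fluoxetine. Htr5b is one of the least studied receptors of the family, couples to G proteins, and in rodents its mRNA is known from CA1 pyramidal cells of the hippocampus, the habenula and the raphe. In humans the gene is interrupted by stop codons and gives no functional receptor.

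On the rat genome build rn4, the Htr5b transcript (gene ID 79247) lies on the minus strand of chromosome 13 from 33545128 to 33558050, and its 2 exons make 2218 bases of mRNA. The Tph2 transcript (gene ID 317675) lies on the minus strand of chromosome 7 from 54321033 to 54430706 and joins 11 exons to 2580 bases. Reads were counted in the exons, so introns did not enter the values. No other listed transcript lay close to either gene: the nearest one was 4.89 Mb from Htr5b (Nap5) and 4.23 Mb from Tph2 (LOC100362798). In the newer assembly GRCr8, a pseudogene (LOC103692856) overlaps the span of Tph2, and none of the annotated genes overlaps that of Htr5b. Use of the strand in counting is not stated, so that reads of a gene on the opposite strand could not be told apart.

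The promoters of both genes are shown because both had higher mean reads after fluoxetine, although for Htr5b a single sample carried this. They are RefSeq sequences of GRCr8, given 5′ to 3′ on the minus strand, which is the strand of both genes, from 250 bases before to 50 bases after the annotated start. Capitals mark matches to TATAAA (the TATA box), CCAAT (the CCAAT box), GGGCGG (the GC box) or TGACG (the half-site of the cAMP response element), which were searched on both strands.
Htr5b promoter, chr13:35252537-35252836: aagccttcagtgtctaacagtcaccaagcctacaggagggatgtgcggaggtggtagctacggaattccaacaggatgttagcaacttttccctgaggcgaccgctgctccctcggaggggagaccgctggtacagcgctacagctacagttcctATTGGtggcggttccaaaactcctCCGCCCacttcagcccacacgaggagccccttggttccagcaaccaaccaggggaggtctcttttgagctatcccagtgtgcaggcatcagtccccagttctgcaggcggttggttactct
Tph2 promoter, chr7:52675590-52675889: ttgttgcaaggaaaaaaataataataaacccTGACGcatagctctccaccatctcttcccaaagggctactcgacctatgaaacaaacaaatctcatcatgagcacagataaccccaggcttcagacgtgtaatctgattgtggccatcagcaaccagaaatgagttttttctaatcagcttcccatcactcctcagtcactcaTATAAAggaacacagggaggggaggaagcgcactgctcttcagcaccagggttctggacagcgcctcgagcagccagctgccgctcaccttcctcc

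The promoters had none of the 4 motifs in common. Htr5b held a CCAAT and a GGGCGG match, both as the reverse complement and starting 95 and 71 bases before the annotated start. Such matches are found in 37.5% and 33.1% of 33469 rat promoters of the same length. Tph2 held a TATAAA match that began 46 bases before the start, as 14.2% of promoters do somewhere in the window, and a TGACG match at 219 bases before it, which 21.2% hold. The GC content was 57.0% for Htr5b and 48.7% for Tph2, against a median of 51.7% over all promoters. These are descriptions of the letters, and factor binding was not measured.

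The samples held from 12512599 to 14080349 reads by the library totals that underlie the deposited values. The deposited counts summed over the listed transcripts came to 138314 to 162734 per sample. Where transcripts of 1 gene overlap, that sum counts the same read more than once. Levels are given as reads per 1000000 reads of those totals (RPM), or as reads normalized by TMM. That scaling takes the typical listed transcript as unchanged, although all of them were kept for a difference. The ratio of fluoxetine to vehicle means was 1.48 by TMM and 1.65 by RPM for Htr5b. For Tph2 it was 3.08 by TMM and 3.35 by RPM. Wfs1, which encodes wolframin and marks CA1 pyramidal cells, had 3522 to 8847 reads per sample. As Wfs1 is itself a listed transcript, its reads are no test of what the punches held. Hcrt, a neuropeptide precursor of the hypothalamus, had 5 and 22 reads after fluoxetine (samples 1 and 2) and 0 and 6 after vehicle. Its highest count was thus in fluoxetine sample 2, where Htr5b was also highest, and its part in the Htr5b values was not tested.

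Htr5b was well detected, and its higher mean after fluoxetine came from 1 of the 2 samples. Its reads numbered 237 and 507 after fluoxetine (samples 1 and 2) and 212 and 224 after vehicle. This gives an RPM of 16.8 and 37.5 for the fluoxetine samples, and of 15.1 and 17.9 for the vehicle samples. Fluoxetine sample 1 thus lay between both vehicle samples, fluoxetine sample 2 stood apart, and the groups overlapped.

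Fluoxetine sample 2 held 2.23 times the Htr5b level of fluoxetine sample 1 (95% counting interval 1.91 to 2.61). Vehicle sample 2 held 1.18 times that of vehicle sample 1 (0.976 to 1.43). Against both vehicle samples together, the ratio was 1.02 for fluoxetine sample 1 (0.870 to 1.20) and 2.28 for fluoxetine sample 2 (2.00 to 2.60). These exact intervals cover counting error only and leave out the spread between pooled samples. Reads without molecular identifiers are not independent molecules, so even the counting error may be understated.

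Htr5b averaged 343 ± 153 normalized reads after fluoxetine and 232 ± 7.10 after vehicle (SD, n = 2), so that the difference of 111 lay within 1 SD of the fluoxetine group. The log2 fold change was 0.56 (standard error 0.52, adjusted p = 0.367 from edgeR's quasi-likelihood test over 830 transcripts). An exact permutation test gave a two-sided p of 0.667, where 2 against 2 samples cannot give less than 0.333. Without fluoxetine sample 2 the log2 fold change was -0.11, and without fluoxetine sample 1 it was 0.96 (adjusted p = 0.844 and 0.257 from edgeR). Its sign therefore depended on a single sample.

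**Figure D1:**
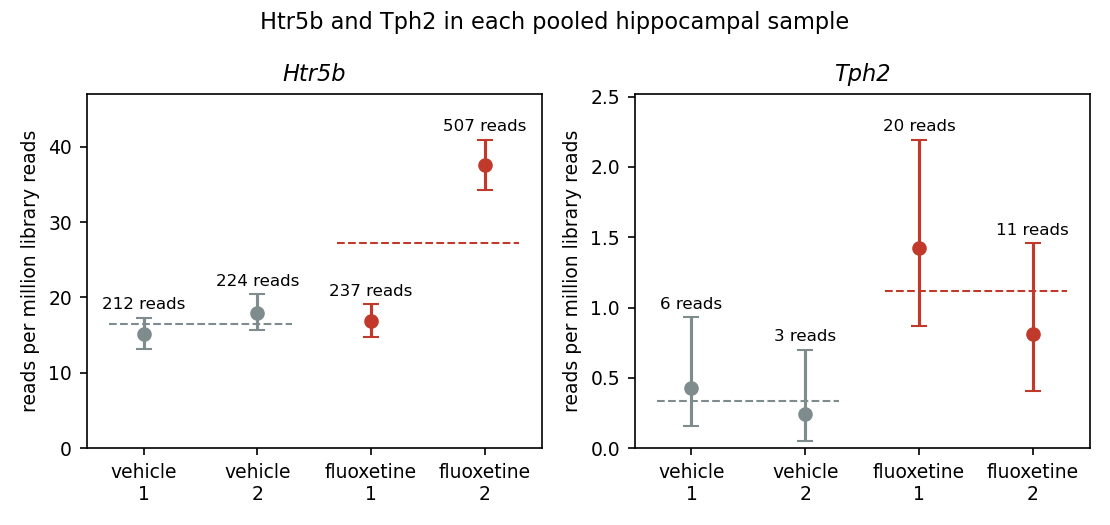
Reads per 1000000 library reads (RPM) of Htr5b (left) and Tph2 (right) in each sample, vehicle in grey and fluoxetine in red, with bars for the exact 95% counting interval, dashed lines at the group means and the read count above each point. For Htr5b only fluoxetine sample 2 (37.5) stands above the other samples (15.1 to 17.9), and for Tph2 the fluoxetine samples (1.42 and 0.814) lie above the vehicle samples (0.428 and 0.240) with wide intervals.

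Tph2 was near the limit of detection, with higher reads in both fluoxetine samples. It had 20 and 11 reads in fluoxetine samples 1 and 2, and 6 and 3 reads in vehicle samples 1 and 2, an RPM of 1.42 and 0.814 against 0.428 and 0.240. The groups did not overlap, and fluoxetine sample 1 was the highest. The same order without overlap, with the fluoxetine samples higher, was found in 30.6% of the 830 listed transcripts at the TMM scaling and in 34.0% by the deposited values. Htr5b was not among them.

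Summed over samples, the 31 fluoxetine and 9 vehicle reads of Tph2 gave a ratio of 3.31 by library totals (95% counting interval 1.54 to 7.91, exact). This interval takes reads as the unit and leaves out the spread between pooled samples, so it is no test of the treatment. By sample, the interval of fluoxetine sample 2 (RPM of 0.406 to 1.46) overlapped that of vehicle sample 1 (0.157 to 0.932) and of vehicle sample 2 (0.0494 to 0.701). The interval of fluoxetine sample 1 (0.868 to 2.19) was clear of vehicle sample 2 alone. Tph2 averaged 14.8 ± 7.10 normalized reads against 4.80 ± 2.30 (SD, n = 2). The difference between these means exceeded both SDs.

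The log2 fold change of Tph2 was 1.60 (standard error 0.76, unadjusted p = 0.0903 and adjusted p = 0.199 from edgeR), and DESeq2 gave 1.68 (unadjusted p = 0.232, adjusted p = 0.315). The exact permutation test gave a two-sided p of 0.333, the smallest that this design allows. Left out in turn, the 4 samples gave values of 1.01 to 2.17, all positive, with the lowest without fluoxetine sample 1 and the highest without vehicle sample 1. At a two-sided unadjusted p under 0.05, edgeR called 5.90% of the listed transcripts higher after fluoxetine and neither Tph2 nor Htr5b was among them, and DESeq2 called 0.00%. At an adjusted p under 0.05, 0.00% were called in either direction by edgeR, and DESeq2 called 0 transcripts. Scaling, dispersion and adjustment were estimated over transcripts that had all been kept for a difference, without the unselected ones. These counts are therefore no test of the authors' calls.

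**Figure D2:**
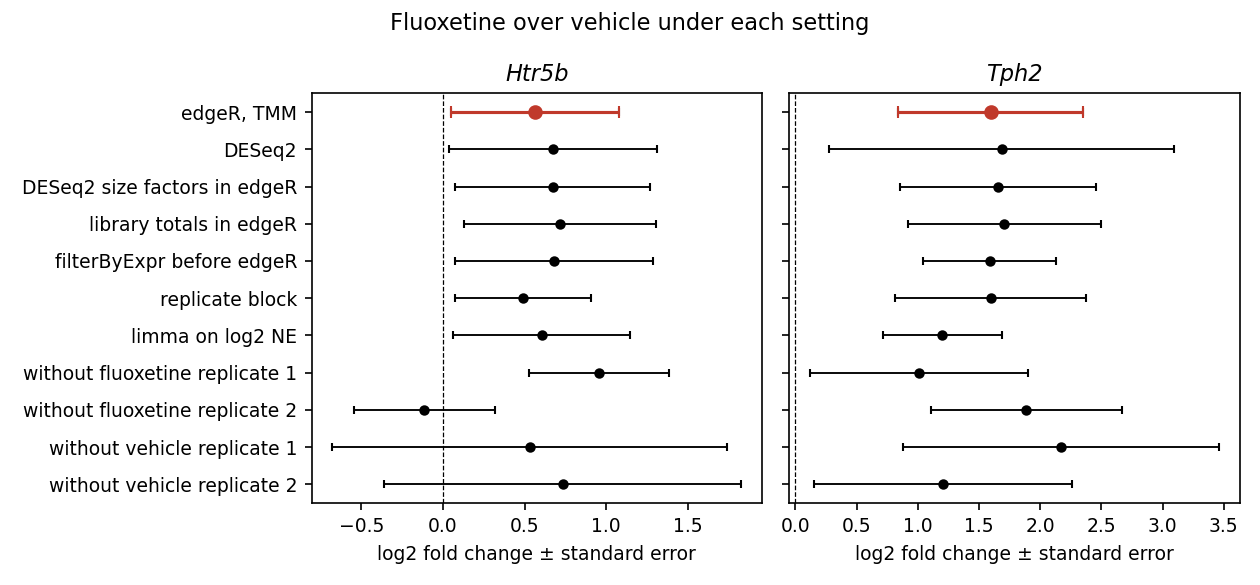
Log2 fold change of fluoxetine over vehicle with its standard error for Htr5b (left) and Tph2 (right), with the value of the edgeR fit in red and 10 other settings below it. Htr5b falls to -0.11 without fluoxetine sample 2, and Tph2 stays between 1.01 and 2.17.

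Per length, Htr5b was the more abundant of the pair in every sample. The deposited normalized expression (NE) value divides reads by transcript length and library size. By NE, Htr5b stood at 0.0759 and 0.169 after fluoxetine (samples 1 and 2) and at 0.0682 and 0.0807 after vehicle. For Tph2 the NE was 0.00551 and 0.00316 in the fluoxetine samples and 0.00166 and 0.00093 in the vehicle samples. The NE of Htr5b was thus 13.8 times that of Tph2 in fluoxetine sample 1, 53.5 times in fluoxetine sample 2, and 41.1 and 86.8 times in vehicle samples 1 and 2. Among the listed transcripts, 79.9% had a lower mean NE than Htr5b and 23.6% a lower one than Tph2. The genes also differed in which fluoxetine sample was higher, sample 2 for Htr5b and sample 1 for Tph2.

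Both genes lay in the band of fold changes that the selection left at their level. Of the 62 other higher transcripts whose mean normalized reads were within 2-fold of Htr5b, the median log2 fold change was 0.62 and the values ran from 0.44 to 1.23, and 16 had a smaller value than Htr5b. Within 2-fold of Tph2 there were 100 others, with a median of 1.81 and values from 1.10 to 2.92, and 35 had a smaller value. Over all 830 transcripts, both directions included, the median was 0.49. The larger fold change of Tph2 thus stood at a level where each of these 100 transcripts had a log2 fold change of 1.10 or more.

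**Figure D3:**
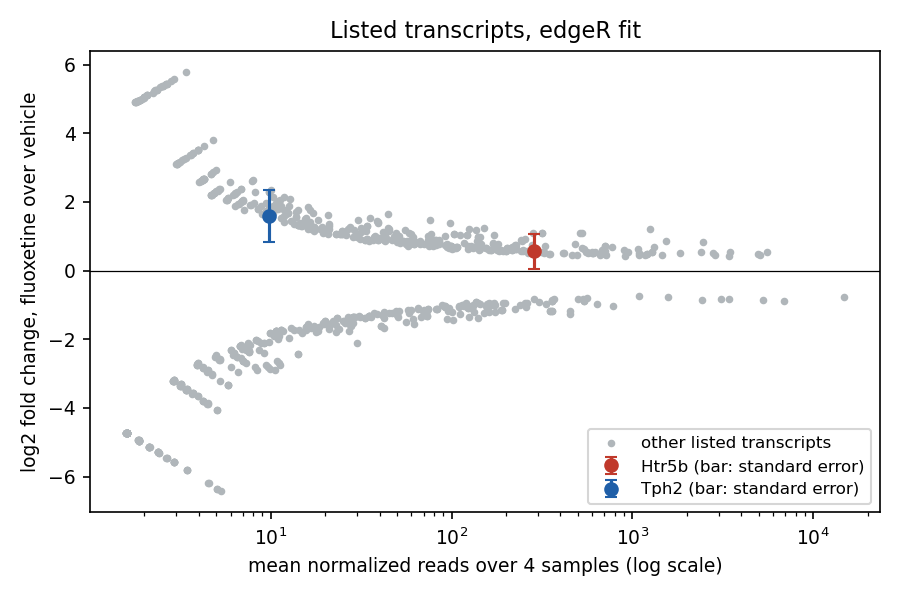
Log2 fold change against mean normalized reads (log scale) for the 830 listed transcripts in grey, with Htr5b in red and Tph2 in blue and their standard errors. Transcripts near 0 are missing because of the authors' thresholds, the gap widens as reads become fewer, and Tph2 (9.80 mean normalized reads) lies in its wide part while Htr5b (288) lies in its narrow part.

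Of the serotonin genes looked for, Htr5b and Tph2 were the only ones listed. Among 14 serotonin receptor genes, 1 was listed, and among 19 genes of serotonin synthesis, storage, uptake and breakdown, which included the transporter Slc6a4 and the monoamine oxidases Maoa and Maob, 1 was listed. The other genes of both lists were not analysed here. Of 36 genes of G protein and cAMP signalling below the receptors, 2 were listed and both had lower reads after fluoxetine. Adcy1, a calcium-stimulated adenylate cyclase, had a log2 fold change of -0.78, and Prkcd, protein kinase C delta, of -1.16 (adjusted p = 0.249 and 0.199 from edgeR).

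Genes of CA1 pyramidal cells, where Htr5b is known to be expressed, were also above the vehicle mean in fluoxetine sample 2. Of the 12 genes of a CA1 list reported here, 5 were in the table (Wfs1, Pou3f1, Nov, Dcn and Ndst4), each of the 5 with higher mean reads after fluoxetine, a median log2 fold change of 0.67 and 0 of 5 at an unadjusted p under 0.05 from edgeR. Over all 540 listed gene symbols, both directions included, the median was 0.53, and 23.6% of the transcripts had an unadjusted p under 0.05 in either direction. Among the 432 transcripts with a log2 fold change above 0, the median was 1.10. For the CA1 list the summed normalized reads were 5556 and 11506 after fluoxetine (samples 1 and 2) and 5181 and 6691 after vehicle. The sum in fluoxetine sample 2 was 2.07 times that in sample 1, and for Htr5b the same ratio was 1.92.

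Against the vehicle mean, fluoxetine sample 2 was higher for 5 of the 5 genes, by 1.65 to 2.75 times, and fluoxetine sample 1 was lower for 3 of 5, with a range of 0.847 to 1.79 times. Dcn, the proteoglycan decorin, which fibroblasts also make, and Ndst4, an enzyme of heparan sulfate synthesis, were the ones that were higher in both fluoxetine samples. Set against Wfs1, the most abundant gene of the list, Htr5b stood at 58.6 and 57.3 normalized reads per 1000 of Wfs1 after fluoxetine (samples 1 and 2) and at 60.2 and 49.3 after vehicle. This ratio was chosen after the values were seen, and it overlapped between the groups. The other 4 genes gave other patterns. Dcn was lower in fluoxetine sample 2 than in sample 1, at 68.5 against 74.3 normalized reads, so that Htr5b stood at 3.16 and 6.58 times Dcn after fluoxetine (samples 1 and 2) and at 4.24 and 8.0 times after vehicle. Against Nov it stood at 0.510 and 0.383 times after fluoxetine and at 0.650 and 0.321 times after vehicle. For Pou3f1 (0.197 to 0.245 times) and Ndst4 (4.22 to 6.42 times) the ratio was lower in fluoxetine sample 2 than in sample 1, and for Ndst4 both fluoxetine samples were below both vehicle samples. In bulk tissue, more cells of a type in the punch and more RNA per cell cannot be told apart, and the part of CA1 content in the Htr5b values was not tested.

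The genes with the profile nearest to Htr5b, out of 62 listed genes of like level, were Zdhhc23, a palmitoyltransferase, Rasl11b, a small GTPase, and Adpgk, an ADP-dependent glucokinase. Likeness was the root mean square difference of log2 normalized reads over the 4 samples, each gene centred on its mean. It was 0.05 for Zdhhc23, 0.11 for Rasl11b and 0.13 for Adpgk, against a median of 0.75 over the 62 genes. The normalized reads of Zdhhc23 were 467 and 862 after fluoxetine (samples 1 and 2) and 438 and 494 after vehicle. It too was high in fluoxetine sample 2 alone, which follows from its choice by likeness over these same samples. Fluoxetine sample 2 was above the other samples, with fluoxetine sample 1 not above both vehicle samples, in 71 of the 830 transcripts (8.55%), a pattern counted after the values of Htr5b were seen.

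Markers of serotonergic neurons were nearly all outside the table. Of 12 genes in that list, Tph2 and Gchfr were listed, and the defining genes Fev, Lmx1b, Slc6a4 and Slc18a2 were not analysed here. Gchfr, which encodes a feedback regulator of the enzyme that makes the cofactor of tryptophan hydroxylase, had 26 and 17 reads after fluoxetine (samples 1 and 2) and 13 and 2 after vehicle. For Gchfr too the groups did not overlap, and fluoxetine sample 1 was again the highest. Its log2 fold change was 1.33 (standard error 0.91, adjusted p = 0.262 from edgeR). Gchfr is not restricted to serotonergic cells, and whether any such cell bodies were in the punches was not tested.

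The habenula, another known site of Htr5b, was represented by 1 of 15 list genes. Tac1, the precursor of substance P, had 10 and 27 reads after fluoxetine (samples 1 and 2) and 1 and 10 after vehicle, and it is also made by other neurons. Its reads were high in fluoxetine sample 2, as those of Htr5b were, and the groups overlapped.

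For Tph2, the nearest profiles out of 153 listed genes of like level were those of Cmc1, which acts in the assembly of cytochrome c oxidase, ST7 and Lrrc6, which acts in the assembly of ciliary dynein arms. Their root mean square differences from Tph2 were 0.08, 0.16 and 0.18, against a median of 1.40. The normalized reads of Cmc1 were 27.7 and 13.3 after fluoxetine (samples 1 and 2) and 8.57 and 5.30 after vehicle. At such levels a few reads decide the profile.

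**Figure D4:**
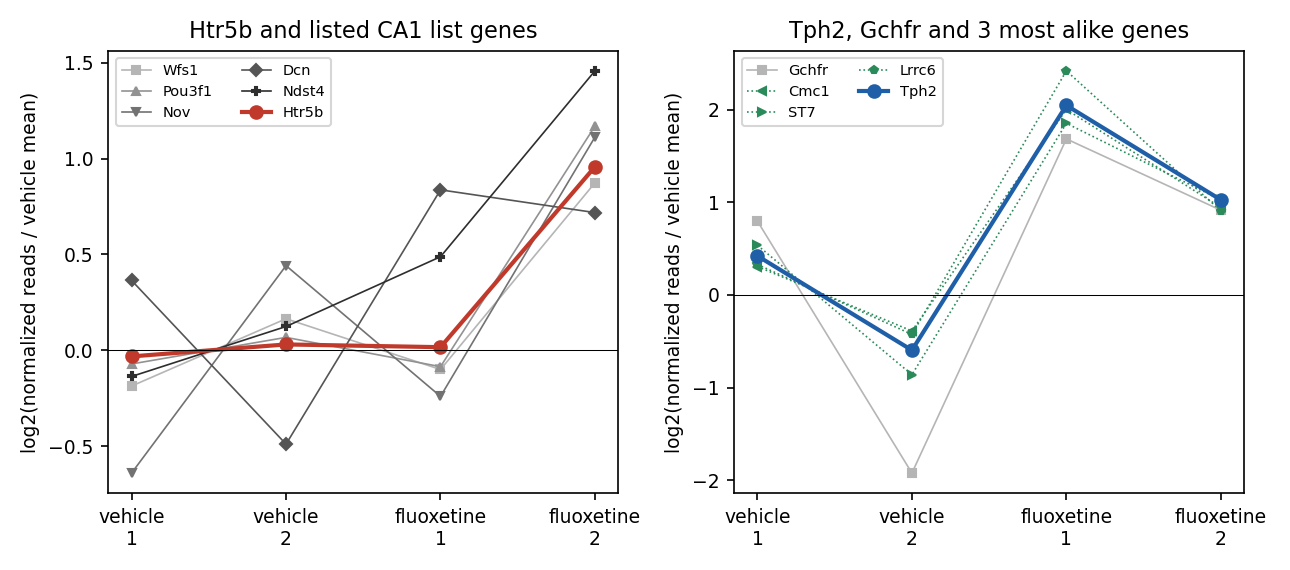
Log2 of normalized reads over the vehicle mean in each sample, on the left for Htr5b (red) and the 5 reported genes of the CA1 list (grey), on the right for Tph2 (blue), Gchfr (grey) and the 3 genes with the nearest profile (green, dotted). Htr5b and Wfs1, which was singled out after the values were seen, are high in fluoxetine sample 2 alone, at 1.94 and 1.83 times the vehicle mean. Dcn is lower in fluoxetine sample 2 than in sample 1, at 1.65 against 1.79 times, and the other CA1 list genes are highest in fluoxetine sample 2. Tph2 and Gchfr are highest in fluoxetine sample 1, at 4.13 and 3.21 times.

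Cells of the other hippocampal fields had few genes in the table, with lower mean reads after fluoxetine. For CA2 and CA3, 2 of 15 list genes were listed (Cpne4 and Prkcd), and for dentate gyrus granule cells 1 of 12 (Stxbp6). Their summed normalized reads were 309 to 459 in the fluoxetine samples against 732 to 739 in vehicle for CA2 and CA3, and 185 to 268 against 428 to 453 for the dentate gyrus. Htr5b did not share this order. Of the neighbouring regions, the subiculum and neocortex list had 2 of 16 genes listed (Cplx3 and Nts), with summed normalized reads of 270 and 779 after fluoxetine (samples 1 and 2) and 147 and 487 after vehicle. The thalamus list had 2 of 13 listed (Prkcd and Synpo2), at 89.8 to 176 against 266 to 339, and the hypothalamus list had 1 of 16 (Hcrt). Prkcd stands in the thalamus list, the CA2 and CA3 list and the G protein list, so their lower reads are not separate results. Like Htr5b, the subiculum and neocortex genes were highest in fluoxetine sample 2. Oligodendrocyte and myelin genes, 14 of 27 listed, had higher mean reads after fluoxetine in all 14, against 52.0% of all listed transcripts. As for Htr5b, sample 2 was above sample 1 for 12 of the 14 within the fluoxetine group, and for 12 of 14 within the vehicle group. The share of all listed transcripts with this order was not counted, so it is not read as a trait of these genes. Across 406 listed transcripts the differences between samples 1 and 2 correlated between the treatments (r = 0.63). Summed over the 14 genes, the normalized reads were 13932 and 26181 after fluoxetine (samples 1 and 2) and 10703 and 17313 after vehicle.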

How the data were processed

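Poly(A) RNA of 4 pooled hippocampal samples was sequenced by the authors as single reads of 36 bp, aligned to rn4 with 1 mismatch and kept where a read had 1 genomic position. The deposited read counts are unnormalized counts in the exons of each transcript, made by the authors with Genomatix software. The deposited NE is a signal, reads divided by transcript length and data set size. Its constant was taken as 10000000, which gives the library totals. The table also holds the authors' fold changes and p-values, which were not used. It holds only transcripts past the authors' thresholds.

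Counts of all 830 transcripts (69 without a gene ID) entered a single quasi-likelihood fit (R 4.3.3, edgeR 4.0.16) with TMM scaling. Treatment was the only term, and no filter was used. Benjamini-Hochberg adjustment covered the whole table, and standard errors are the log2 fold change over the root of F. The common dispersion was 0.268. Alternatives were DESeq2 1.42.0, its size factors, library totals, filterByExpr, a replicate block, limma 3.58.1 on log2 NE (pseudocount 0.001) and each sample left out. The fit was tested on simulated counts in which most transcripts were unchanged, unlike the selected transcripts here. Only simulated transcripts with more mean reads than Tph2 were scored, so the level of Tph2 was not covered. Intervals and summaries used Python 3.11.15 and scipy 1.17.1, and figures matplotlib 3.10.9.

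A gene with several transcripts in a list stands at the one with the most reads. Genes of nearest profile were the 3 with the smallest difference (log2 of normalized reads plus 1) within 2-fold of the mean level of Htr5b or Tph2. The genes and lists were chosen with earlier results of these data known. Pools came from different rats, but 2 samples per group estimate the spread poorly. Sample numbers are those of the labels. The value columns carry treatment and control names with numbers, and were matched to the labels by group and number alone. The 12 genes given for the CA1 list leave out 1 gene, which is not reported here.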

Additional observations from a re-analysis of the deposited data

How the results depend on the processing

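Of 10 alternatives each, Tph2 kept its direction in 10 and Htr5b in 9, and none gave an adjusted p under 0.05 for either gene. The adjusted p ranged from 0.257 to 0.844 for Htr5b and from 0.173 to 0.495 for Tph2. The reversal was that of Htr5b without fluoxetine sample 2 (-0.11), and with 1 sample left out its log2 fold change ranged from -0.11 to 0.96 and that of Tph2 from 1.01 to 2.17. The 6 other settings gave 0.49 to 0.72 for Htr5b and 1.20 to 1.71 for Tph2. The unadjusted p of Tph2 was under 0.05 in 1 of 10 alternatives, 0.0351 with the 528 transcripts that filterByExpr kept. Transcripts higher at an unadjusted p under 0.05 numbered 49 in edgeR, 0 in DESeq2, 93 with limma on log2 NE, and 17 to 68 with 1 sample left out (17 without fluoxetine sample 1 and 28 without vehicle sample 2). The cause of these shifts was not tested. With the replicate number as a block, the count was 63 and the log2 fold changes were 0.49 for Htr5b and 1.60 for Tph2 (adjusted p = 0.32 and 0.201 from edgeR). The difference between samples 1 and 2 correlated between the treatments across 406 transcripts of at least 20 mean normalized reads (r = 0.63, genes are not independent replicates), but nothing in the labels says that the numbers pair the samples. For Tph2, depth limits the precision, since its lowest sample had 3 reads (95% counting interval 0.619 to 8.77).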
